A study of Mus musculus with 12 samples.

Results

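The genes described here encode the subunits of the mitochondrial respiratory chain and ATP synthase that are made from nuclear DNA. They were picked from the deposited expression table by symbol: names beginning Nduf (followed by a, b, c, s or v and a number), Sdha to Sdhd, Uqcr, Cox4 to Cox8, and Atp5, without entries marked as pseudogenes. The rule used no measured value and found 85 of the table's 41009 genes, of which 37 belong to complex I, 4 to complex II, 8 to complex III, 18 to complex IV and 18 to complex V. In the sense of the gene names Ndufa4 is counted with complex I, although its protein is now placed in complex IV.

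The samples were 12 bulk RNA-seq libraries of tumours in female BALB/c mice aged 4 to 5 weeks. Every mouse carried 4T1 cells, an established mammary carcinoma line derived from BALB/c mice, marked with the fluorescent protein mCherry and placed in the mammary fat pad, and every mouse was given an Fc protein intraperitoneally after randomisation on day 7. The proteins were Ctrl-Fc at 5 mg/kg (called Ctrl here), VHH-OD-Fc at 3.5 mg/kg, VHH-PD-1-Fc at 2.6 mg/kg, and VHH-OD-PD-1-Fc, which has both binding arms, at 4.3 mg/kg. A VHH, or nanobody, is the variable domain of the heavy-chain-only antibodies that camels and llamas make, Fc is an antibody's constant region, and PD-1 is an inhibitory receptor on T cells. The labels do not spell out OD, and the series title names nanobodies that bind endogenous digoxin-like substances. The tumours come from 1 cell line. Each group had 3 libraries, and the labels do not say that these came from separate animals, so the p-values measure the spread between libraries, which may be technical.

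The respiratory chain passes electrons from NADH (complex I) and succinate (complex II) through ubiquinone to complex III, then through cytochrome c to complex IV, which reduces oxygen. Complexes I, III and IV pump protons across the inner membrane, and ATP synthase (complex V) uses the proton gradient to make ATP. A small set of catalytic subunits of complexes I, III, IV and V is encoded by mitochondrial DNA, complex II is wholly nuclear, and the nuclear genes supply the remaining catalytic subunits, a large number of small accessory subunits and some tissue-specific isoforms.

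Values are FPKM, fragments per kilobase of transcript and per 1e+06 fragments, so that levels may be compared between genes of different length. Differences are on the scale log2(FPKM + 1), which understates the change of low genes, and are given ± SE. A gene was called higher or lower at a Benjamini-Hochberg adjusted p under 0.05 in limma, adjusted over the 14306 genes with 3 or more libraries at an FPKM of 1 or above. Of the 85 subunits 84 passed this filter. Cox7b2, a testis isoform of complex IV, did not: it was listed at 0 in every Ctrl and VHH-OD-Fc library and reached at most 0.474 FPKM elsewhere. The estimated depth was 21.8 to 30.45 M fragments per library, where M stands for 1e+06. The FPKM of a library added up to 388142 to 401179 where the construct had the PD-1 arm and to 327792 to 345596 where it had not. The number of genes above 0 was 24924 to 26203 in the 6 libraries without the arm, 30257 to 31676 in 5 of the 6 with it and 25553 in VHH-PD-1-Fc replicate 2, and its part in the results was not tested. The tumour epithelial markers, 8 of 8 in the table, summed to 1201 to 3742 FPKM, with the lowest sum in Ctrl replicate 1, where Epcam was 14.3 FPKM against 98.0 and 162 in the other Ctrl libraries. The median SD of a subunit on the log2 scale was 0.21 among VHH-PD-1-Fc libraries, 0.13 among VHH-OD-Fc libraries and 0.11 among Ctrl libraries, but 0.05 among the 3 that received VHH-OD-PD-1-Fc, which were thus the most alike. The labels give no batch, so the PD-1 arm and any batch that ran with it cannot be told apart.

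In the Ctrl libraries the subunits together held 1.60% ± 0.0329 (SD, n = 3) of the FPKM sum. The highest level was that of Cox8a, a small structural subunit of complex IV, with 407, 392 and 381 FPKM in the 3 libraries. Cox6a1, another small subunit of complex IV, followed with 255, 283 and 264 FPKM, and its libraries did not overlap with those of Cox8a. Atp5f1b and Atp5f1a, the beta and alpha subunits of the catalytic head of ATP synthase, stood at 229, 261 and 262 and at 192, 223 and 202 FPKM, and Atp5f1b overlapped with Cox6a1. Levels within a complex were far from equal. In complex I the range of Ctrl means ran from 1.12 ± 0.201 FPKM (SD, n = 3) for Ndufb2 to 114 ± 6.60 FPKM for Ndufa2, both accessory subunits, and Ndufs1, which carries iron-sulphur clusters of the electron path, was at 8.34 ± 0.544 FPKM. In complex II, Sdhd was at 106 ± 3.14 FPKM, and Sdha, Sdhb and Sdhc were at 38.0 ± 0.519, 43.1 ± 9.30 and 41.5 ± 4.83 FPKM. The tissue or alternative isoforms of complex IV were low: Cox7b2 was listed at 0, and the other 6 ran from 0.898 ± 0.261 FPKM for Cox6b2 to 4.94 ± 1.74 FPKM for Cox4i2.

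On the deposited FPKM scale, most of these subunits were called higher in tumours given a construct with the PD-1 arm than in Ctrl tumours. With VHH-OD-Fc alone none of them was called. The number called with the PD-1 arm depended on the scaling, as given below, and was not a majority in every setting. With VHH-PD-1-Fc, 51 of 84 tested subunits rose and 3 fell against Ctrl (limma), and with VHH-OD-PD-1-Fc 52 rose and 2 fell. Of all genes tested 14.6% rose and 32.3% fell with VHH-PD-1-Fc, and 15.1% rose and 27.1% fell with VHH-OD-PD-1-Fc, so that the subunits' shares of 60.7% and 61.9% higher stood above the background of each comparison and their shares lower stood below it. The median log2 difference of the subunits was 0.41 with VHH-PD-1-Fc and 0.44 with VHH-OD-PD-1-Fc, against -0.19 and -0.14 over all genes tested. Both comparisons use the same Ctrl libraries. In bulk tumours, a change in the number of cells of a type and a change in RNA per cell cannot be told apart. The share of the FPKM sum held by the subunits was 1.62% ± 0.0760 with VHH-OD-Fc, 2.01% ± 0.0487 with VHH-PD-1-Fc and 1.96% ± 0.0219 with VHH-OD-PD-1-Fc (SD, n = 3 each), and no library with the PD-1 arm overlapped with a library without it.

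**Figure D1:**
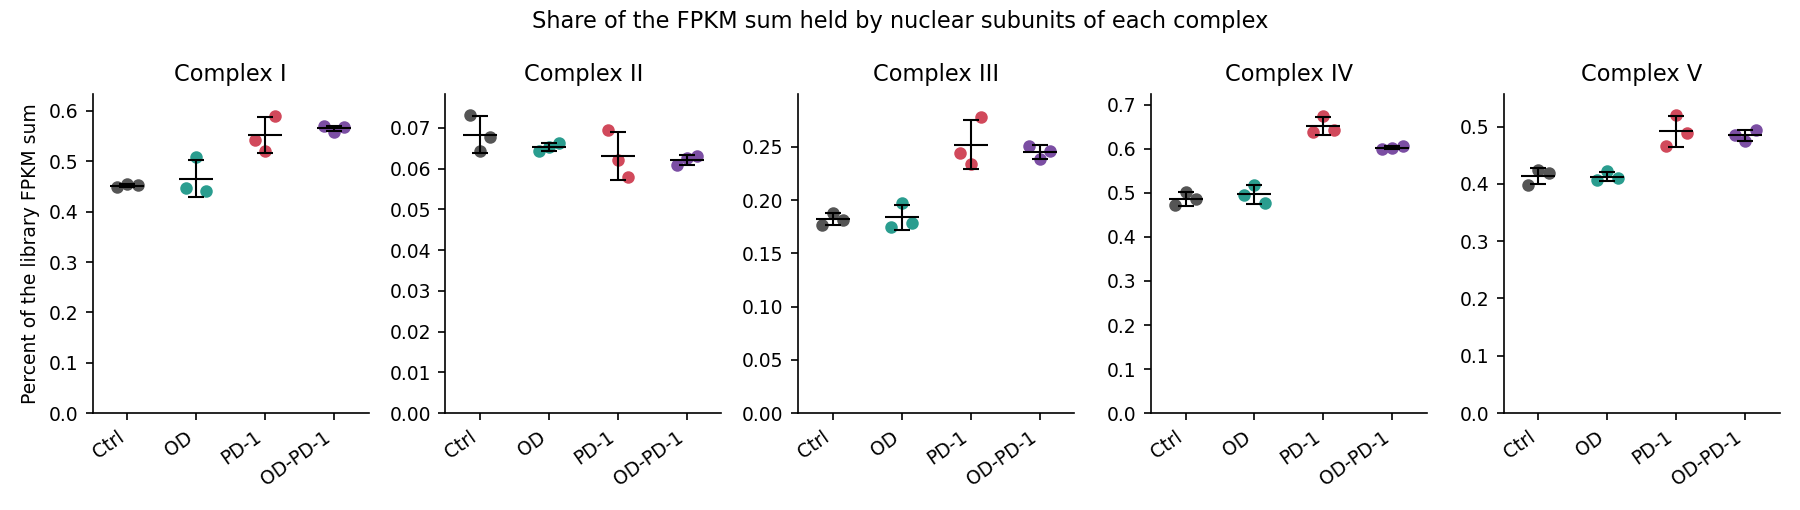
Each panel shows 1 complex, with the percent of a library's FPKM sum held by its nuclear subunits on the vertical axis and the 4 treatment groups on the horizontal axis. Points are libraries, bars are the mean and SD of 3 libraries. Complexes I, III, IV and V are higher in the libraries with the PD-1 arm, and complex II is not.

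By complex, the share of complex I was 0.452% ± 0.00296 in Ctrl, 0.465% ± 0.0368 with VHH-OD-Fc, 0.552% ± 0.0355 with VHH-PD-1-Fc and 0.565% ± 0.00581 with VHH-OD-PD-1-Fc (SD, n = 3 each). Complex III held 0.182% ± 0.00592 in Ctrl, 0.252% ± 0.0231 with VHH-PD-1-Fc and 0.245% ± 0.00643 with VHH-OD-PD-1-Fc. For complex IV these shares were 0.486% ± 0.0152, 0.652% ± 0.0197 and 0.603% ± 0.00385, and for complex V 0.413% ± 0.0141, 0.492% ± 0.0271 and 0.485% ± 0.00949. For each of these 4 complexes, the 6 libraries with the PD-1 arm lay above the 6 without it. Complex II did not follow: its share was 0.0683% ± 0.00452 in Ctrl, 0.0631% ± 0.00588 with VHH-PD-1-Fc and 0.0621% ± 0.00115 with VHH-OD-PD-1-Fc, and the groups overlapped between Ctrl and VHH-PD-1-Fc. The shares are a description and were not tested, and they depend on the FPKM sum, which was itself higher in the libraries with the PD-1 arm.

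How many subunits were called depended on the scaling. With FPKM rescaled to TPM (a common sum per library over all genes of the table), the count with VHH-PD-1-Fc was 31 higher and 7 lower and with VHH-OD-PD-1-Fc 32 and 4, and the median of all genes then moved to -0.38 and -0.33, with the subunits at 0.20 and 0.22. With median-of-ratios scaling, which sets the median gene near no change, the counts were 62 and 2, and 62 and 1, with the subunits' medians at 0.64 and 0.60. The shares of all genes called under these scalings are not given here. Where the 3 libraries of VHH-OD-PD-1-Fc counted as 1 sample, 21 subunits rose and 0 fell with that construct.

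**Figure D2:**
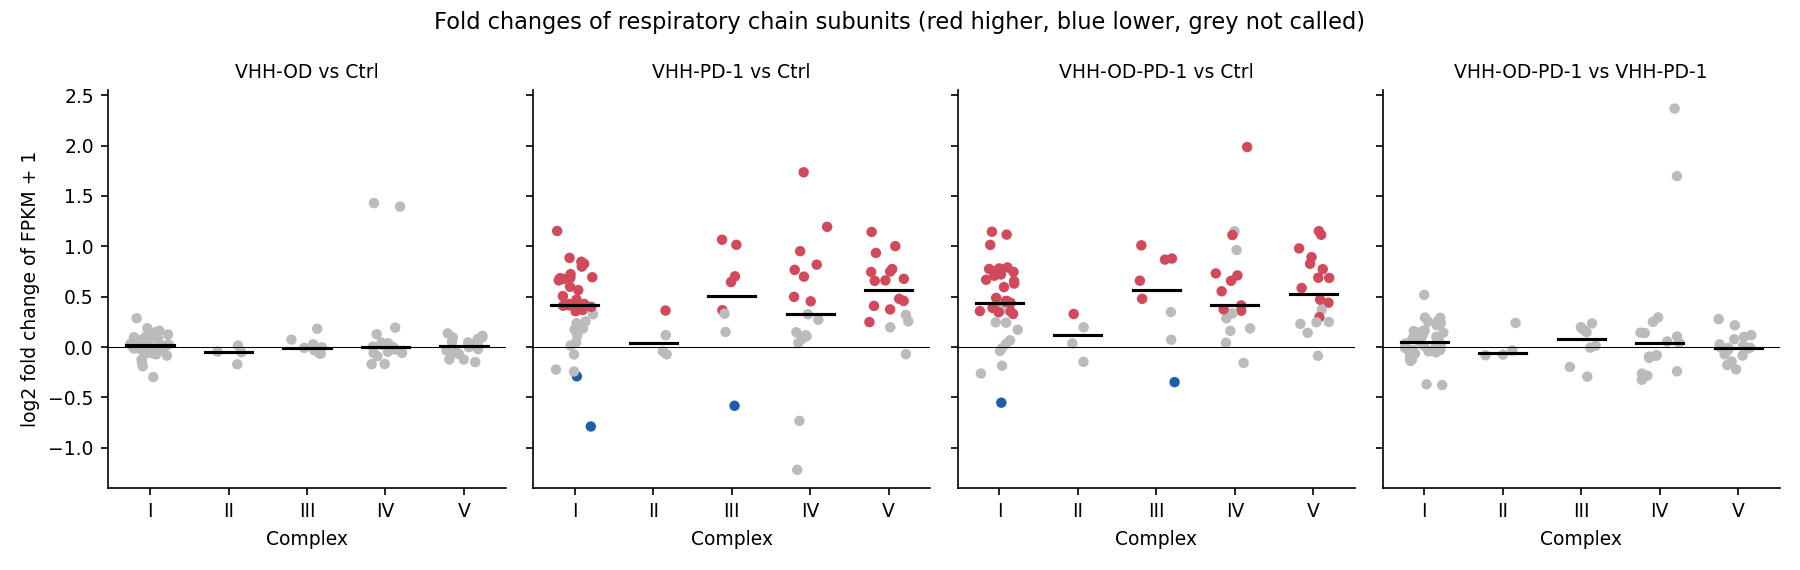
Log2 fold change of FPKM + 1 on the vertical axis for each tested subunit, grouped by complex on the horizontal axis, in 4 comparisons. Red points were called higher, blue points lower and grey points were not called, and horizontal bars are medians per complex. No point is coloured in the first and the last panel, while most points are red in both comparisons of the PD-1 arm with Ctrl.

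VHH-OD-Fc alone gave no call. Of the 84 subunits 0 were called in either direction against Ctrl by limma, as were 0% of all genes, and 1 subunit had an unadjusted p under 0.05, against 449 of all genes. The median log2 difference was 0.01 over the subunits and -0.02 over all genes. That subunit was Ndufa12, an accessory subunit of complex I, with 23.6, 30.8 and 22.8 FPKM in Ctrl and 20.3, 21.2 and 20.2 FPKM with VHH-OD-Fc, a difference of -0.30 ± 0.12 (limma adjusted p = 1). Its sequence is shared with a processed pseudogene, which makes its level uncertain. Ndufb9 was next among the lower ones with 48.1, 56.1 and 54.3 FPKM in Ctrl and 45.4, 50.8 and 42.4 FPKM with VHH-OD-Fc, a difference of -0.19 ± 0.10, and here the groups overlapped. Among the higher ones the smallest p-values were those of Ndufa4 (0.29 ± 0.16, 95% interval -0.07 to 0.65) and of Cox7a2l (0.19 ± 0.11, 95% interval -0.05 to 0.44), which takes part in joining complexes III and IV into supercomplexes, and neither was called.

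In VHH-OD-Fc replicate 2 the subunits stood above the other libraries of that group. It was the highest of the 3 for 69 of the 84 tested subunits, and the share of all genes for which it was the highest was not worked out. The FPKM sum of this library was also the highest of its group, at 345596 against 332603 and 327792 in replicates 1 and 3. So a shift over many genes and a shift of the subunits cannot be told apart here. The same library had a sum of 2125 FPKM over 8 skeletal muscle markers, against 12.9 and 280.3 FPKM in the other libraries of the group, and Acta1, the actin of skeletal muscle, was 1.45, 1437 and 144 FPKM in replicates 1, 2 and 3. Across the other groups the muscle sum was 8.38 to 279 FPKM in Ctrl, 5.57 to 30.7 FPKM with VHH-PD-1-Fc and 184 to 186 FPKM with VHH-OD-PD-1-Fc. This library also had the highest sum of its group for neutrophil markers (1861 FPKM, against 456 and 865 in replicates 1 and 3), erythroid markers (776 against 261 and 146), adipocyte markers (89.6 against 25.7 and 45.8), heart and slow muscle markers (47.1 against 3.74 and 13.1), B cell markers (10.6 against 1.83 and 1.58) and endothelial markers (32.04 against 24.4 and 27.8). It had the lowest sum of its group for tumour epithelial markers (2328 FPKM, against 2485 and 2456 in replicates 1 and 3) and keratinocyte markers (5.74 against 14.9 and 15.2). For T cell, macrophage and fibroblast markers its sum was not the highest. The part of these cells in the subunits' levels was not tested. Markers of brown adipocytes, 3 of 3 in the table, summed to at most 0.373 FPKM in any library. Without this library the count of subunits called with VHH-OD-Fc was still 0.

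In complex I, 23 of 37 subunits rose and 2 fell with VHH-PD-1-Fc, and 25 rose and 1 fell with VHH-OD-PD-1-Fc (limma, against Ctrl). The core subunits, which bind NADH, carry the iron-sulphur clusters and form the ubiquinone site, were divided, with 4 of 7 higher and 1 lower under both constructs. Those that rose were Ndufs3, Ndufs7, Ndufs8 and Ndufv2. Ndufv2, which holds a cluster beside the NADH site, was 42.1, 51.1 and 48.8 FPKM in Ctrl, 53.7, 55 and 48.6 with VHH-OD-Fc, 57.2, 63.1 and 72.1 with VHH-PD-1-Fc and 80.2, 76.2 and 79.1 with VHH-OD-PD-1-Fc. All 6 libraries with the PD-1 arm lay above the 6 without it, and the difference from Ctrl was 0.43 ± 0.11 (limma adjusted p = 0.00738) and 0.72 ± 0.11 (limma adjusted p = 0.000554). Ndufs7 and Ndufs8, both iron-sulphur subunits on the path to ubiquinone, rose by 0.47 and 0.40 with VHH-PD-1-Fc and by 0.35 and 0.35 with VHH-OD-PD-1-Fc. Ndufs3, a structural core subunit next to the ubiquinone site, rose by 0.41 and 0.45, but in the first case the libraries overlapped with Ctrl, and a processed pseudogene nearly identical to it makes its level uncertain.

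Ndufs1, the largest core subunit of the NADH-oxidising part of complex I, went the other way. It was 8.92, 7.84 and 8.28 FPKM in Ctrl, 7.52, 7.89 and 8.57 with VHH-OD-Fc, 4.73, 3.5 and 5.12 with VHH-PD-1-Fc and 5.17, 5.48 and 5.44 with VHH-OD-PD-1-Fc. All 6 libraries with the PD-1 arm lay below all 6 without it, as was so for 22.7% of all genes tested. The difference from Ctrl was -0.79 ± 0.11 (limma adjusted p = 0.00045) and -0.55 ± 0.11 (limma adjusted p = 0.00335), and the second lost its call when the 3 libraries of VHH-OD-PD-1-Fc counted as 1 sample. Ndufv1, which binds NADH and the flavin, was 38.9, 44.9 and 42.9 FPKM in Ctrl, 48.7, 50.9 and 38.5 with VHH-PD-1-Fc and 35.4, 34.8 and 34.7 with VHH-OD-PD-1-Fc, with differences of 0.11 ± 0.10 and -0.26 ± 0.10 that were not called.

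Of the 30 accessory subunits of complex I, which surround the core and are needed for its assembly and stability, 19 rose and 1 fell with VHH-PD-1-Fc and 21 rose and 0 fell with VHH-OD-PD-1-Fc. Ndufa2, on the matrix arm, was 116, 120.0 and 107 FPKM in Ctrl, 113, 169 and 115 with VHH-OD-Fc, 223, 249.9 and 296 with VHH-PD-1-Fc and 233, 229 and 233 with VHH-OD-PD-1-Fc. The libraries with the PD-1 arm lay above the rest, although VHH-OD-Fc replicate 2 reached 169 FPKM. Its difference from Ctrl was 1.15 ± 0.15 (limma adjusted p = 0.00027) and 1.01 ± 0.15 (limma adjusted p = 0.00061). Ndufa4 was 62.2, 55.5 and 51.1 FPKM in Ctrl, 106, 126 and 86 with VHH-PD-1-Fc and 126, 130.1 and 120.1 with VHH-OD-PD-1-Fc, and rose by 0.89 and 1.15. VHH-OD-Fc replicate 2, at 87.7 FPKM, overlapped with the lowest VHH-PD-1-Fc library. Ndufc2, on the membrane arm, was 76.3, 89.1 and 87.1 FPKM in Ctrl, 129, 100.1 and 160.5 with VHH-PD-1-Fc and 181, 182 and 187 with VHH-OD-PD-1-Fc, and rose by 0.60 and 1.12. Ndufb9 rose by 0.83 and 0.46. Among all the accessory subunits that rose, the log2 differences ran from 0.36 (Ndufa8) to 1.15 (Ndufa2) with VHH-PD-1-Fc and from 0.33 (Ndufa10) to 1.15 (Ndufa4) with VHH-OD-PD-1-Fc.

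Ndufa9, which sits close to the ubiquinone site, was the accessory subunit that fell with VHH-PD-1-Fc. It was 25.6, 26.5 and 26.9 FPKM in Ctrl, 25.5, 18.9 and 20.2 with VHH-PD-1-Fc and 25.7, 26.2 and 25 with VHH-OD-PD-1-Fc. The highest VHH-PD-1-Fc library lay just below the lowest Ctrl library, and the difference of -0.29 ± 0.10 (limma adjusted p = 0.0367) lost its call with median-of-ratios scaling, at -0.07, and in other settings. The other accessory subunits that were not called under either construct had differences from -0.24 (Ndufb2, at about the filter's minimum) to 0.24 (Ndufa12) with VHH-PD-1-Fc, and Ndufb6 was among them, with -0.22 ± 0.09 and 0.07 ± 0.09.

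**Figure D3:**
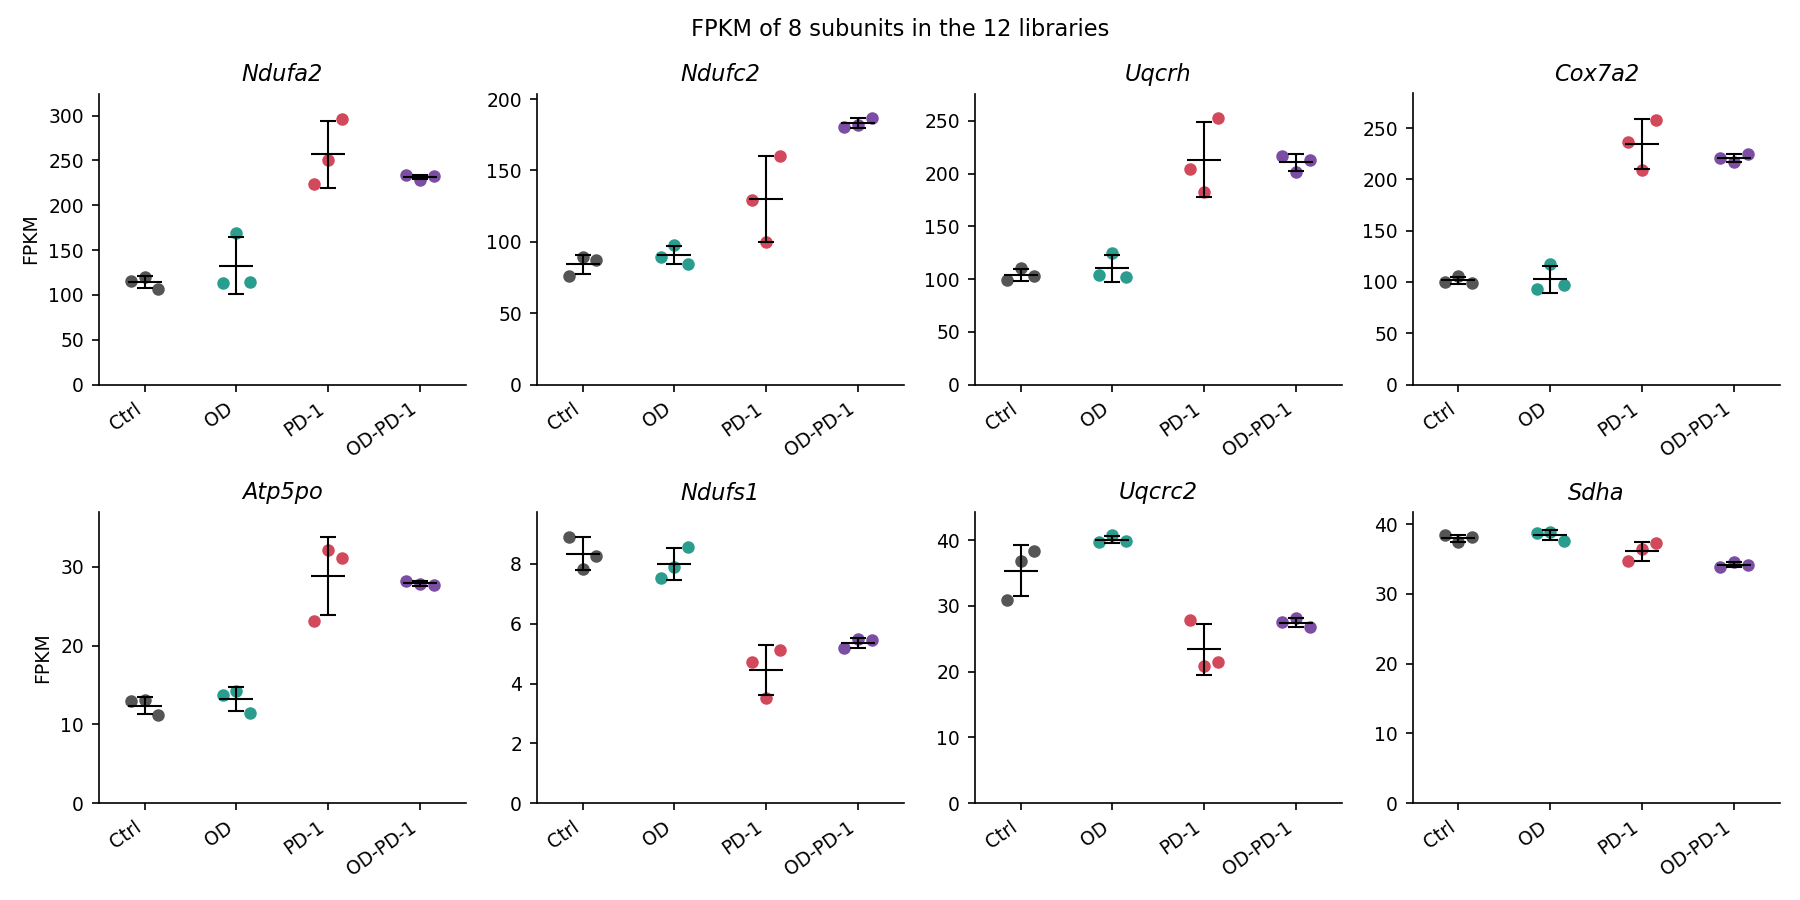
FPKM on the vertical axis, starting at 0, for 8 subunits in the 4 treatment groups on the horizontal axis. Points are libraries, bars are the mean and SD of 3 libraries. Ndufa2, Ndufc2, Uqcrh, Cox7a2 and Atp5po are higher with the PD-1 arm, Ndufs1 and Uqcrc2 are lower, and Sdha differs little.

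Complex II stood apart from the rest in its counts. The flavoprotein Sdha, which oxidises succinate and also serves the citrate cycle, was 38.4, 37.4 and 38.2 FPKM in Ctrl, 38.8, 38.9 and 37.6 with VHH-OD-Fc, 34.7, 36.4 and 37.3 with VHH-PD-1-Fc and 33.9, 34.6 and 34.1 with VHH-OD-PD-1-Fc. The 6 libraries with the PD-1 arm lay below the 6 without it, but by a small amount, and the differences of -0.07 ± 0.07 (95% interval -0.22 to 0.08) and -0.15 ± 0.07 (95% interval -0.30 to 0.00) were not called. Its iron-sulphur partner Sdhb differed by -0.04 ± 0.14 and 0.20 ± 0.14, and the membrane anchor Sdhd by 0.12 ± 0.13 and 0.04 ± 0.13, with no call. Sdhc, the other membrane anchor, was the 1 of 4 that rose. It was 47.1, 38.8 and 38.6 FPKM in Ctrl, 52.4, 52.2 and 55.7 with VHH-PD-1-Fc and 54.2, 50.8 and 51.3 with VHH-OD-PD-1-Fc, a difference of 0.36 ± 0.09 (limma adjusted p = 0.00917) and 0.33 ± 0.09 (limma adjusted p = 0.0162). Both calls of Sdhc were lost with rescaling to TPM, at 0.14 and 0.10. With 4 members, no test was made of whether complex II differs from the others.

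In complex III, 5 of 8 subunits rose and 1 fell under each of both constructs. The small subunits carried most of the rise, with 4 of 5 higher in each comparison. Uqcrh, the hinge protein between cytochrome c1 and cytochrome c, was 99.3, 110.5 and 103 FPKM in Ctrl, 104, 125 and 102 with VHH-OD-Fc, 205, 183 and 253 with VHH-PD-1-Fc and 217, 202 and 213 with VHH-OD-PD-1-Fc. The libraries with the PD-1 arm all lay above those without it, and the differences from Ctrl were 1.01 ± 0.12 (limma adjusted p = 0.000183) and 1.01 ± 0.12 (limma adjusted p = 0.000225). Uqcr10 rose by 1.07 and 0.87, Uqcrq by 0.70 and 0.88, and Uqcr11 by 0.65 and 0.66. The exception among the small subunits was Uqcrb, which differed by 0.15 ± 0.18 and 0.35 ± 0.18, was not called and has 3 nearly identical processed pseudogenes.

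The core proteins of complex III, large subunits on its matrix side, did not move together. Uqcrc2 was 31, 36.8 and 38.4 FPKM in Ctrl, 39.7, 40.7 and 39.9 with VHH-OD-Fc, 27.9, 20.8 and 21.5 with VHH-PD-1-Fc and 27.5, 28.1 and 26.8 with VHH-OD-PD-1-Fc. All 6 libraries with the PD-1 arm lay below the 6 without it. Against Ctrl it fell by 0.58 (SE 0.12, limma adjusted p = 0.00234) and 0.35 (SE 0.12, limma adjusted p = 0.0322), but with length and GC trends removed neither fall was called, at -0.31 and -0.15. Its partner Uqcrc1 was 58.5, 60.4 and 66.6 FPKM in Ctrl, 79, 97.6 and 66.1 with VHH-PD-1-Fc and 69.8, 61.8 and 63.7 with VHH-OD-PD-1-Fc. It rose by 0.37 with VHH-PD-1-Fc, where 1 library overlapped with Ctrl and the call was lost without VHH-PD-1-Fc replicate 1, among other settings, and differed by 0.07 ± 0.13 with VHH-OD-PD-1-Fc. The Rieske protein Uqcrfs1, which carries the iron-sulphur cluster of the complex, was called higher with VHH-OD-PD-1-Fc, at 0.48 ± 0.13, and not with VHH-PD-1-Fc, at 0.33 ± 0.13. The difference between the constructs was 0.15 ± 0.13 (limma adjusted p = 0.654).

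In complex IV, 8 of 17 tested subunits rose with VHH-PD-1-Fc, 9 rose with VHH-OD-PD-1-Fc, and 0 fell in either. Among the 11 ubiquitous subunits 7 and 8 rose. Cox7a2, the ubiquitous isoform of a small membrane subunit, was 100.2, 106 and 99.1 FPKM in Ctrl, 93.3, 117 and 96.6 with VHH-OD-Fc, 237, 209 and 258 with VHH-PD-1-Fc and 221, 217 and 224 with VHH-OD-PD-1-Fc. The groups with and without the PD-1 arm were far apart, with differences from Ctrl of 1.19 ± 0.11 (limma adjusted p = 4.36e-05) and 1.11 ± 0.11 (limma adjusted p = 6.77e-05). Cox7a2l rose by 0.95 and 0.71. Cox4i1, the subunit at which ATP regulates the enzyme, was 194, 192 and 191 FPKM in Ctrl, 323, 389.6 and 282 with VHH-PD-1-Fc and 309, 295 and 310.1 with VHH-OD-PD-1-Fc, and rose by 0.77 and 0.66. Cox8a rose by 0.70 and 0.37, and Cox6a1 by 0.50 and 0.55. Cox6b1, which faces the intermembrane space, rose by 0.45 and 0.36, but with length and GC trends removed its value with VHH-OD-PD-1-Fc was -0.12.

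The remaining ubiquitous subunits of complex IV mostly gave no call. Cox5a and Cox5b, both on its matrix side, differed by 0.12 ± 0.12 and 0.27 ± 0.11 with VHH-PD-1-Fc, and with VHH-OD-PD-1-Fc Cox5a differed by 0.16 ± 0.12 while Cox5b was called higher, at 0.41 ± 0.11. Cox7b differed by 0.15 ± 0.11 and 0.29 ± 0.11 and Cox7c by 0.08 ± 0.14 and 0.19 ± 0.14. The largest log2 difference of any subunit in both comparisons was that of Cox6c2, at 1.74 ± 0.28 and 1.99 ± 0.28, from 2.66, 2.38 and 4.13 FPKM in Ctrl to 8.81, 13.6 and 15.3 with VHH-PD-1-Fc and 17.1, 12.3 and 15.3 with VHH-OD-PD-1-Fc. Its annotated transcript is 97.0% identical to that of Cox6c, a far more abundant gene that rose by 0.82 and 0.73, and reads of these genes may have been split between them, so its value is uncertain.

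The muscle isoforms of complex IV took their levels from few libraries. Cox6a2, which replaces Cox6a1 in heart and skeletal muscle, was 1.28, 9.29 and 0.993 FPKM in Ctrl, 0.188, 57 and 11.3 with VHH-OD-Fc, 1.42, 0.54 and 0 with VHH-PD-1-Fc and 6.6, 6.6 and 7.85 with VHH-OD-PD-1-Fc. Cox8b, the muscle and brown fat partner of Cox8a, was 0.11, 4.31 and 1.54 FPKM in Ctrl, 0.473, 26.2 and 6.29 with VHH-OD-Fc, 0.851, 0.764 and 0 with VHH-PD-1-Fc and 3.66, 4.28 and 3.51 with VHH-OD-PD-1-Fc. Both were highest in VHH-OD-Fc replicate 2, the library with the highest muscle markers, where Cox6a2 made up 18.2% of Cox6a1 and Cox6a2 together, and the part of muscle tissue in these values was not tested. Neither was called in any comparison. Cox7a1, the muscle partner of Cox7a2, was at most 4.45 FPKM in any library, Cox4i2, an isoform of lung and low oxygen, at most 8.79 FPKM, and Cox6b2, a testis isoform, at most 1.26 FPKM, and none of them was called against Ctrl.

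**Figure D4:**
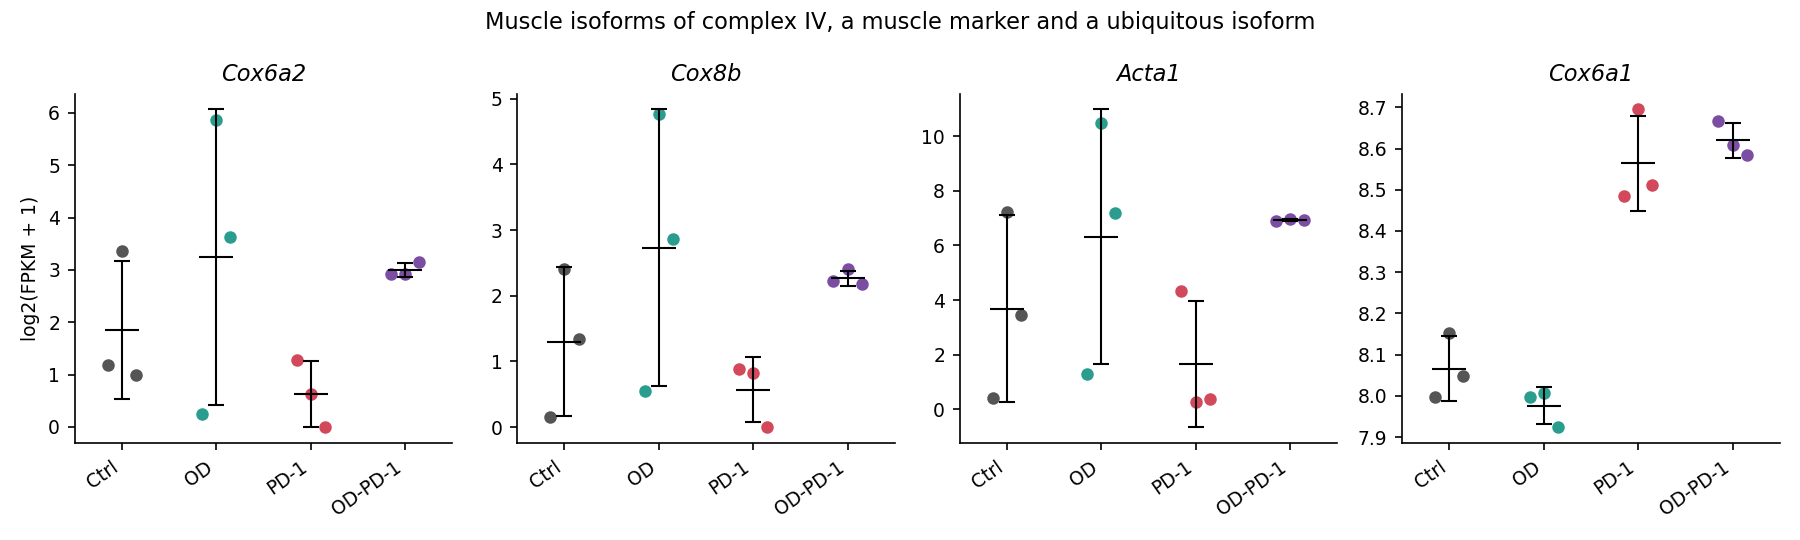
log2(FPKM + 1) on the vertical axis for Cox6a2, Cox8b, the muscle marker Acta1 and the ubiquitous isoform Cox6a1 in the 4 treatment groups on the horizontal axis. Points are libraries, bars are the mean and SD of 3 libraries. VHH-OD-Fc replicate 2 is the highest library for Cox6a2, Cox8b and Acta1, whereas Cox6a1 is highest in the 6 libraries with the PD-1 arm.

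In complex V, 14 of 18 genes rose with VHH-PD-1-Fc, 12 rose with VHH-OD-PD-1-Fc and 0 fell. In the catalytic F1 head and its central stalk, 4 of 5 and 3 of 5 rose. The exception was the beta subunit Atp5f1b, which holds the catalytic sites: it was 254, 287 and 185 FPKM with VHH-PD-1-Fc and 234, 234 and 239 with VHH-OD-PD-1-Fc, and differed from Ctrl by -0.07 ± 0.14 (95% interval -0.38 to 0.24) and -0.09 ± 0.14 (95% interval -0.40 to 0.23). The alpha subunit Atp5f1a rose by 0.37 with VHH-PD-1-Fc and was not called with VHH-OD-PD-1-Fc, at 0.23 ± 0.10. Atp5f1c, the gamma subunit of the rotating stalk, rose by 0.41 and 0.69, and Atp5f1e, the epsilon subunit, was 89.3, 68.9 and 71.3 FPKM in Ctrl, 120.4, 189 and 158 with VHH-PD-1-Fc and 151, 147 and 154 with VHH-OD-PD-1-Fc, and rose by 1.002 and 0.98. Atp5f1d, the delta subunit of the central stalk, rose by 0.66 and 0.44.

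Of the 13 other genes of complex V, 10 and 9 rose, by 0.25 (Atp5pf) to 1.14 (Atp5po) with VHH-PD-1-Fc and by 0.30 (Atp5pd) to 1.15 (Atp5mj) with VHH-OD-PD-1-Fc. Atp5po, the subunit of the outer stalk that confers sensitivity to oligomycin, was 13, 13 and 11.1 FPKM in Ctrl, 13.8, 14.3 and 11.4 with VHH-OD-Fc, 23.1, 32.1 and 31.2 with VHH-PD-1-Fc and 28.3, 27.8 and 27.7 with VHH-OD-PD-1-Fc. Its libraries with the PD-1 arm lay above all others, with differences of 1.14 ± 0.13 (limma adjusted p = 0.000137) and 1.11 ± 0.13 (limma adjusted p = 0.000195), but 287 bases of its transcript are shared with the neighbouring gene Donson. Atp5mj, a small membrane subunit, rose by 0.93 and 1.15. The genes Atp5mc1, Atp5mc2 and Atp5mc3 encode the same c subunit of the rotor ring with different import signals. Atp5mc2 rose by 0.66 and 0.59, Atp5mc3 by 0.75 and 0.83, and Atp5mc1, the lowest of them, differed by 0.25 ± 0.13 and 0.25 ± 0.13 and was not called. Atp5if1, which blocks the synthase from hydrolysing ATP, rose by 0.68 and 0.69. In the outer stalk Atp5pb differed by 0.32 ± 0.14 and 0.14 ± 0.14 with no call, and Atp5pd was called with VHH-OD-PD-1-Fc, at 0.30 ± 0.09, a value that was -0.00882 with length and GC trends removed.

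The promoters of the subunits were searched for motifs of factors known to bind respiratory genes. RefSeq promoters (build GRCm38.p6, 250 bases before to 50 after the start site) were matched for 68 of the 85 genes, in 73 windows of 300 bases, and each motif was searched on both strands. The NRF1 motif GCGCATGCG was in 8 of 73 windows (10.96%), against 1.75% of all 32851 windows. With any base in the middle, GCGCANGCG, it was in 21 (28.8%) against 6.25%, and this form includes the first. The ETS motif CCGGAAG, the core bound by GABPA, was in 16 (21.9%) against 8.86%, and the YY1 motif AAGATGGCG in 7 (9.59%) against 1.40%. TATAAA was in 8 (10.96%) against 13.6%. These are matches of letters in windows, with no test, and genes with more than 1 start site gave more than 1 window. The 4 promoters printed here were chosen so that each of these motifs is seen at least once, in capitals. Cox6a1 (chr5:115348909-115349208, minus strand) holds the NRF1 motif on both strands, overlapping, and the ETS motif on the reverse strand just before the start site. A further match to the looser form GCGCANGCG lies between them and is left in lower case. Uqcr11 (chr10:80406772-80407071, minus strand) holds an ETS and an NRF1 motif, and Atp5mf, whose gene encodes a membrane subunit of ATP synthase (chr5:145191492-145191791, minus strand), holds a YY1 motif just after the start site. Cox8b (chr7:140900397-140900696, minus strand), the muscle isoform, holds TATAAA just after the annotated start site, not before it. Each is read 5′ to 3′ on the gene's own strand.
Cox6a1: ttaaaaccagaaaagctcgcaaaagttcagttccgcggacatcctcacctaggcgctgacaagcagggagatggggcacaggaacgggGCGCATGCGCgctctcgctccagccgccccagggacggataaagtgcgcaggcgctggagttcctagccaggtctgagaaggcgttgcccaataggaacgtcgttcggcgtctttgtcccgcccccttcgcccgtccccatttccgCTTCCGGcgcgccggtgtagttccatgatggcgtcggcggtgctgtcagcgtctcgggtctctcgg
Uqcr11: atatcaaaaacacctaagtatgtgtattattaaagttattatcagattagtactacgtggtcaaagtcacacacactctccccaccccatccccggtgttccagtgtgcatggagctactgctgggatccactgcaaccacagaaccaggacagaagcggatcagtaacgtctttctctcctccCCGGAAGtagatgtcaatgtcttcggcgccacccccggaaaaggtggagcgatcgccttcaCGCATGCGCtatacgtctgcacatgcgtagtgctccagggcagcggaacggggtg
Atp5mf: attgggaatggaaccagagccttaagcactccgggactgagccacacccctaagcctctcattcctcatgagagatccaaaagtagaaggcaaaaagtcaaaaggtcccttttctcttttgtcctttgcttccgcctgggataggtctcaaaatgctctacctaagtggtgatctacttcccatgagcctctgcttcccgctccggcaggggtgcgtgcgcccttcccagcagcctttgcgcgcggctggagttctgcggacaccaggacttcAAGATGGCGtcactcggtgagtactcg
Cox8b: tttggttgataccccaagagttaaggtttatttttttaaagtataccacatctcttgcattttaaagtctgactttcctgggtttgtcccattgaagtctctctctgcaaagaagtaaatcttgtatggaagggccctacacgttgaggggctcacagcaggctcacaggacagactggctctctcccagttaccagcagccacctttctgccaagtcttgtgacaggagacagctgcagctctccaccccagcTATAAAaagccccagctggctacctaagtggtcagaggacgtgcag

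The genes of the first 3 promoters rose under both constructs with the PD-1 arm, as did most subunits. Whether subunits that rose hold these motifs more often than the others was not tested. Atp5mf was 40.7, 46.9 and 46.1 FPKM in Ctrl, 62.6, 70.1 and 97.2 with VHH-PD-1-Fc and 78.2, 74.1 and 78.1 with VHH-OD-PD-1-Fc, a difference of 0.75 ± 0.14 and 0.77 ± 0.14.

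VHH-OD-PD-1-Fc was then compared with each construct that has 1 arm. Against VHH-PD-1-Fc, 0 of 84 subunits were called in either direction by limma, against 0.538% of all genes higher and 0.301% lower. The median difference was 0.01 over the subunits and 0.04 over all genes, and 9 subunits had an unadjusted p under 0.05, against 2211 of all 14306 genes tested. The smallest p-values among the higher ones were those of Ndufc2, at 0.52 ± 0.14 (95% interval 0.20 to 0.84, limma adjusted p = 0.12), and Ndufb6, at 0.29 ± 0.09 (limma adjusted p = 0.172), and in both the libraries of the groups did not overlap. Among the lower ones they were those of Ndufb9, at -0.37 ± 0.10 (limma adjusted p = 0.112), and Cox8a, at -0.32 ± 0.09 (limma adjusted p = 0.113). Leaving out VHH-PD-1-Fc replicate 1 gave 3 calls higher, and leaving out replicate 3 of that group gave 1 higher and 1 lower. The count of 0 does not show that the constructs act alike.

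Against VHH-OD-Fc, 54 of 84 subunits were higher with VHH-OD-PD-1-Fc and 3 were lower by limma, where 15.4% of all genes were higher and 24.5% lower. The median was 0.44 over the subunits and -0.11 over all genes. By complex, 24 of 37 were higher in complex I, 1 of 4 in complex II, 5 of 8 in complex III, 9 of 17 in complex IV and 15 of 18 in complex V. The 3 lower genes were Ndufs1 (-0.50 ± 0.11), Uqcrc2 (-0.53 ± 0.12) and Ndufv1 (-0.30 ± 0.10). Ndufv1 was 43.2, 43 and 43.9 FPKM with VHH-OD-Fc and 35.4, 34.8 and 34.7 with VHH-OD-PD-1-Fc, with no overlap, and its call was lost with median-of-ratios scaling, at -0.18. With FPKM rescaled to TPM the counts were 31 higher and 5 lower, with length and GC trends removed 31 and 6, and 17 and 0 once the 3 libraries of VHH-OD-PD-1-Fc counted as 1 sample.

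The departure from additivity is the difference of VHH-OD-PD-1-Fc from Ctrl minus those of both constructs with 1 arm. Doses differ between the constructs, so the design is not strictly factorial. Of the 84 subunits 0 were called by limma, and of all genes 0.0909% were called higher and 0.021% lower. An unadjusted p under 0.05 was found for 2 subunits, against 1709 of all 14306 genes tested. The smallest p-values were those of Ndufv1, at -0.42 ± 0.15 (limma adjusted p = 0.299), and Cox7a2l, at -0.43 ± 0.16 (limma adjusted p = 0.313), and on the higher side Sdhb, at 0.41 ± 0.19, and Ndufc2, at 0.41 ± 0.20, both uncalled. The median was 0.02 over the subunits and 0.06 over all genes.

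Most subunits are short genes, and length moved with the differences between libraries. The median annotated transcript was 645 bases for the 82 subunits with a length and 2080 bases for all tested genes with one. With VHH-PD-1-Fc against Ctrl, 33.5% of the other genes under 1000 bases rose and 15.6% fell, while 2.41% of those of 4000 bases and over rose and 53.6% fell. Subunits under 1000 bases were higher in 41 of 61 cases and lower in 0, with a median of 0.50 against 0.17 for the other genes of that length. From 1000 to under 2000 bases 6 of 16 subunits rose and 2 fell, where 16.1% of other genes rose and 24.0% fell, and from 2000 to under 4000 bases 1 of 4 rose and 1 fell, where 5.78% and 40.3% did. With VHH-OD-PD-1-Fc the subunits under 1000 bases were higher in 43 of 61 cases and lower in 0, where 34.9% of other genes rose and 13.8% fell. The subunits that fell, Ndufs1, Uqcrc2 and Ndufa9, each had a transcript of over 1000 bases. With a trend on length and GC content taken out of each library, 33 subunits rose and 5 fell with VHH-PD-1-Fc and 29 and 6 with VHH-OD-PD-1-Fc, and the subunits' medians were 0.26 and 0.20, with those of all genes within 0.01 of 0. In that setting 81 subunits were tested among 13745 genes, and the shares of all genes called are not given here.

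**Figure D5:**
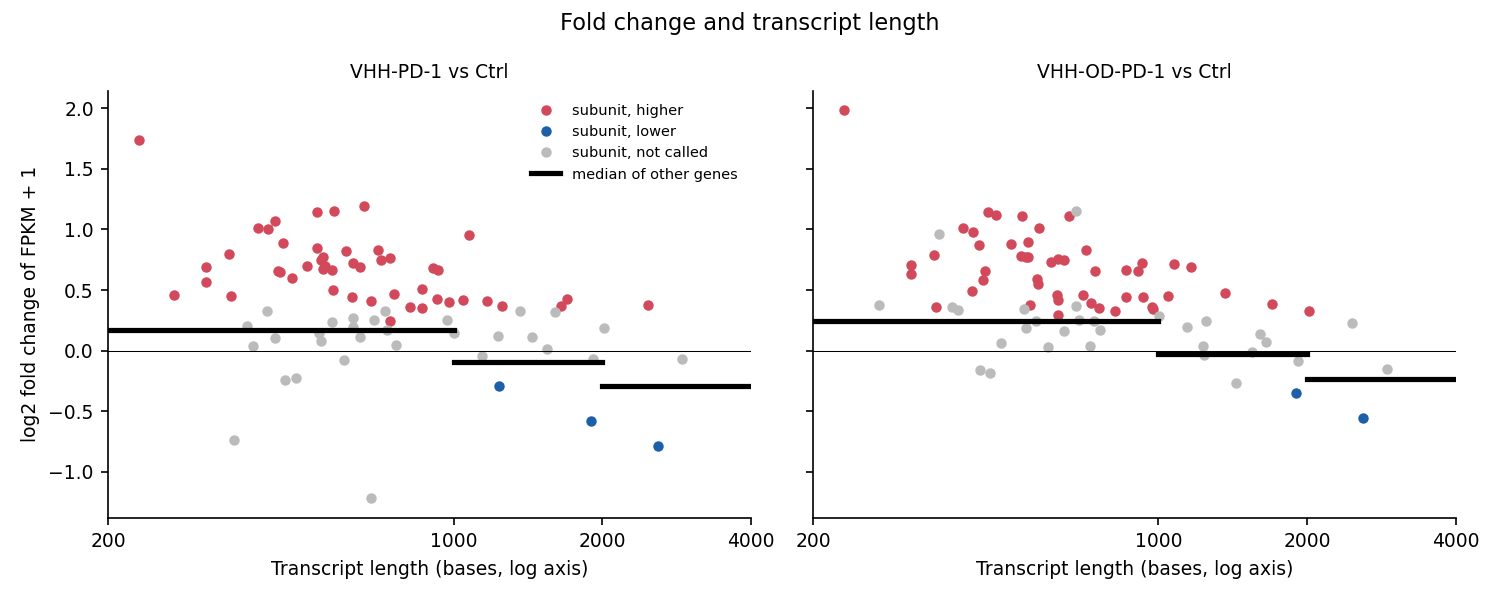
Log2 fold change of FPKM + 1 on the vertical axis against annotated transcript length in bases on a log axis, with VHH-PD-1-Fc (left) and the construct with both arms (right) against Ctrl. Points are subunits, red where called higher, blue where lower and grey where not called, and black bars are the medians of the other genes in each length class. Most subunits under 1000 bases lie above the bar of their class, and the bars go down with length.

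The counts for genes that build or feed the chain are given beside the shares of all genes, which were 14.6% higher and 32.3% lower with VHH-PD-1-Fc and 15.1% and 27.1% with VHH-OD-PD-1-Fc (limma, against Ctrl). Of 16 complex I assembly factors 1 rose (6.25%) and 3 fell (18.8%) with VHH-PD-1-Fc and 3 rose and 3 fell (18.8% each) with VHH-OD-PD-1-Fc, where Acad9, which helps to build the membrane arm, fell by 0.69 and 0.65. Of 31 assembly factors of complexes II to V 8 rose (25.8%) and 6 fell (19.4%) under each construct. Coa3 and Pet100, small proteins needed for complex IV assembly, rose by 0.57 and 0.87 with VHH-PD-1-Fc, while Cox11, which delivers copper to complex IV, was 3.17, 3.28 and 3.53 FPKM in Ctrl, 1.21, 1.08 and 0.68 with VHH-PD-1-Fc and 0.246, 0.746 and 0.931 with VHH-OD-PD-1-Fc, a difference of -1.13 ± 0.17 and -1.42 ± 0.17. Lrpprc, which stabilises mitochondrial messenger RNA, fell by 0.79 with VHH-PD-1-Fc. Among 11 other subunits and electron carriers 3 rose and 3 fell (27.3% each) with VHH-PD-1-Fc, and 3 rose (27.3%) and 1 fell (9.09%) with VHH-OD-PD-1-Fc. Etfb rose by 0.74 and 0.95, and Etfdh, which passes electrons of fatty acid oxidation to ubiquinone, fell by 0.69 and 0.84. Cycs, cytochrome c, fell by 0.58 with VHH-PD-1-Fc and was not called with VHH-OD-PD-1-Fc, at 0.01 ± 0.12.

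Of 18 genes of the citrate cycle and pyruvate dehydrogenase, 0 rose and 9 fell (50%) with VHH-PD-1-Fc and 2 rose (11.1%) and 5 fell (27.8%) with VHH-OD-PD-1-Fc, so that the share that fell stood above that of all genes in the first comparison and close to it in the second. None of the lists was split by transcript length. Outside the subunits, 15.6% of genes under 1000 bases and 53.6% of those of 4000 bases and over fell with VHH-PD-1-Fc. Pdha1, the catalytic subunit of pyruvate dehydrogenase, was 17.6, 17.7 and 18.2 FPKM in Ctrl, 11.6, 7.49 and 9.85 with VHH-PD-1-Fc and 9.9, 10.4 and 10.7 with VHH-OD-PD-1-Fc, and differed by -0.84 ± 0.13 and -0.73 ± 0.13. With VHH-OD-PD-1-Fc, Mdh2 and Cs, both citrate cycle enzymes, rose by 0.34 and 0.29. Of 13 genes of ubiquinone synthesis 2 rose (15.4%) and 4 fell (30.8%) with VHH-PD-1-Fc, shares close to those of all genes, and 1 rose and 1 fell (7.69% each) with VHH-OD-PD-1-Fc. Coq4, a protein of that pathway, rose by 0.52 and 0.69. Of 15 regulators of respiratory genes 0 rose and 11 fell (73.3%), then 0 rose and 6 fell (40%). Esrra, a nuclear receptor that activates such genes, was 13.9, 13.1 and 14.3 FPKM in Ctrl, 10.5, 8.63 and 9.16 with VHH-PD-1-Fc and 9.55, 8.56 and 9.14 with VHH-OD-PD-1-Fc, and fell by 0.50 and 0.55. Gabpa, the DNA-binding subunit of the factor GABP, was 10.0, 11 and 10.1 FPKM in Ctrl, 6.63, 4.63 and 7.69 with VHH-PD-1-Fc and 5.84, 6.04 and 6.97 with VHH-OD-PD-1-Fc, a difference of -0.66 ± 0.15 (limma adjusted p = 0.00514) and -0.65 ± 0.15 (limma adjusted p = 0.00642). Of 12 inner membrane carriers and coupling genes 2 rose (16.7%) and 4 fell (33.3%), then 5 rose (41.7%) and 1 fell (8.33%), with Opa1, which fuses inner membranes, lower by -0.70 and -0.62 on the log2 scale.

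Of the 13 subunits encoded by mitochondrial DNA, 1 rose (7.69%) and 4 fell (30.8%) with VHH-PD-1-Fc, where 14.6% of all genes rose and 32.3% fell. With VHH-OD-PD-1-Fc 6 rose (46.2%) and 0 fell, where 15.1% of all genes rose and 27.1% fell. mt-Co1, the catalytic subunit of complex IV, was 4431, 5972 and 4770.4 FPKM in Ctrl, 5903, 4181 and 5750.1 with VHH-PD-1-Fc and 8445, 8836 and 8859 with VHH-OD-PD-1-Fc, and its difference from Ctrl was 0.06 ± 0.15 and 0.80 ± 0.15. mt-Nd5, of the proton pump of complex I, was 286, 398 and 256 FPKM in Ctrl and 145, 105 and 237 with VHH-PD-1-Fc, a difference of -1.002 ± 0.25. Together these genes held 3.99% ± 0.538 of the FPKM sum in Ctrl, 4.13% ± 0.367 with VHH-OD-Fc, 3.62% ± 0.844 with VHH-PD-1-Fc and 5.52% ± 0.134 with VHH-OD-PD-1-Fc (SD, n = 3 each). Between the constructs with the PD-1 arm, 0 of 13 were called by limma and 11 had an unadjusted p under 0.05, with a median difference of 0.70. Of all 14306 genes tested 2211 had such a p, and their median difference was 0.04. In all of these lists 0 genes were called by limma in VHH-OD-Fc against Ctrl, in VHH-OD-PD-1-Fc against VHH-PD-1-Fc and in the departure from additivity.

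Markers of other cells were counted in the same way. With VHH-PD-1-Fc, 5 of 6 fibroblast markers (83.3%) and 3 of 4 endothelial markers (75%) fell, where 32.3% of all genes fell (limma, against Ctrl). In that comparison 2 of 5 neutrophil, 2 of 6 tested T cell, 1 of 6 macrophage and 1 of 3 tested adipocyte markers also fell and 1 of 8 tumour epithelial markers rose, where 14.6% of all genes rose, and these shares rest on few genes. With VHH-OD-PD-1-Fc, 3 of 4 endothelial (75%), 1 of 6 fibroblast (16.7%), 2 of 6 tested T cell (33.3%), 1 of 2 tested B cell and 1 of 6 macrophage markers fell, where 27.1% of all genes fell, and 2 of 5 neutrophil markers (40%) rose, where 15.1% of all genes rose. The neutrophil markers did not move as a whole: 1 of 5 differed upwards from Ctrl with VHH-PD-1-Fc and 3 of 5 with VHH-OD-PD-1-Fc. Csf3r was 26.2, 22.2 and 16.4 FPKM in Ctrl, 17.7, 10.9 and 5.91 with VHH-PD-1-Fc and 19.6, 19.2 and 20.01 with VHH-OD-PD-1-Fc. Retnlg was 31.9, 60.4 and 35.4 FPKM in Ctrl, 119, 48.7 and 46.5 with VHH-PD-1-Fc and 194, 194 and 181 with VHH-OD-PD-1-Fc. Between these constructs 0 of 5 neutrophil markers were called by limma, while 5 had an unadjusted p under 0.05. The neutrophil markers summed to 619.9 to 910.5 FPKM in Ctrl, 398 to 1200.2 FPKM with VHH-PD-1-Fc and 1895 to 1952 FPKM with VHH-OD-PD-1-Fc. The T cell markers summed to 15.4 to 31.1, 6.93 to 18.7 and 8.85 to 10.5 FPKM in these groups. The fibroblast markers summed to 558 to 790.3 FPKM in Ctrl, 214.9 to 450.3 FPKM with VHH-PD-1-Fc and 535 to 539 FPKM with VHH-OD-PD-1-Fc. The endothelial markers summed to 19.97 to 28.9 FPKM in Ctrl, 11.3 to 14.8 FPKM with VHH-PD-1-Fc and 12.7 to 15.03 FPKM with VHH-OD-PD-1-Fc. The part of these cells in the subunits' differences was not tested. Sequence shared with another annotated transcript (at least 95% identity over at least 50% of the length) was found for 13 of 82 subunits, and their levels are uncertain for that reason. Among the risers these include Atp5mg, with 9 such copies, which rose by 0.77 and 0.89, and Ndufb11 and Ndufs6, with 1 each, which rose by 0.68 and 0.66 with VHH-PD-1-Fc. They also include Atp5f1c, Atp5pd and Atp5mc2, whose whole annotated transcript of 441 bases is 100% identical to the pseudogenes Gm10175 and Gm10231.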

How the data were processed

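Per the labels' protocols, poly(A) RNA of each tumour was sequenced as paired reads of 150 bp. The submitters' processing notes name fastp 0.22.0, HISAT2 2.2.1 and the human build GRCh38, although the symbols of the table are of mouse. For the values' tool, its annotation and its strand setting, the entry is: not given in the sources used here. The authors deposited 1 table of FPKM values for 12 libraries, each column matched to 1 sample by name. The sample labels were followed, since the series' own design line speaks of LLC tumours and digoxin. In 1 group the columns and titles read OD-Fc and the treatment label VHH-OD-Fc.

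The subunits, gene lists, tests and the rule for named genes were chosen with earlier results of these data known. Named with values were the core subunits (1 of them is not reported here), the isoforms and their partners, the extremes of each complex against Ctrl, and the smallest p-values where nothing was called. Differences were fitted on log2(FPKM + 1) with limma 3.58.1 (R 4.3.3), over all 12 libraries with a mean per group and 1 shared spread (8 residual and 3.03 prior degrees of freedom), two-sided, with Benjamini-Hochberg adjustment over 14306 genes. The procedure was tested on simulated data. Depth was estimated from the steps between low values. Between 57.4% and 60.8% of them lay within 0.05 of a whole number of fragments, so counts were not recovered. Lengths and GC content came from GENCODE M21 by symbol, for 96.1% of tested genes and 82 of 85 subunits. Shared sequence was found with BLAST 2.17.0, and promoters were those of RefSeq. Same-numbered libraries of different groups were not paired: the correlation of their deviations from the group means was -0.15 to 0.18, and 1 of 18 was over 0.1.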

Additional observations from a re-analysis of the deposited data

How the results depend on the processing

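Counts are subunits higher and lower, and the shares of all genes called were given above for the main fit only. They were 51 and 3 for VHH-PD-1-Fc over Ctrl, 52 and 2 for VHH-OD-PD-1-Fc over Ctrl, and 54 and 3 for VHH-OD-PD-1-Fc over VHH-OD-Fc. In that order, TPM gave 31 and 7, 32 and 4, and 31 and 5, and removal of length and GC trends gave 33 and 5, 29 and 6, and 31 and 6. Averaging the 3 VHH-OD-PD-1-Fc libraries to 1 sample, assumed to vary like the other groups, gave 41 and 2, 21 and 0, and 17 and 0. The lower count of the second was 1 without the expression filter and with median-of-ratios scaling, 5 with library quality weights and 4 with only the groups compared. Leaving out 1 library gave 42 to 52 higher and 2 to 4 lower, 42 to 58 and 1 to 3, and 45 to 60 and 2 to 4. The same range was 0 to 3 higher and 0 to 1 lower for VHH-OD-PD-1-Fc against VHH-PD-1-Fc. VHH-OD-Fc against Ctrl and the departure from additivity gave 0 calls in every setting run, and the latter was not run with only the groups compared. With length and GC trends removed, Atp5pd turned to -0.00882 and Cox6b1 to -0.12 in the second comparison. The cause of these changes was not tested. With replicate number as a block, although the numbers did not pair the libraries, counts were 49 and 2, 49 and 1, and 51 and 2.

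Chosen after seeing the data, the omission of 3 libraries at once (replicate 2 of VHH-PD-1-Fc, replicate 2 of VHH-OD-Fc and replicate 1 of Ctrl) gave 51 and 2, 56 and 3, and 63 and 3. A pseudocount of 0.1 or 10, or a minimum of 5 on the mean FPKM, changed no count by over 1.5 times. Of the named subunits called in each comparison, 18 of 31, 14 of 31 and 11 of 34 kept their call in every setting run. The depth is an estimate, so no counting interval is given.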
